A study of Mus musculus with 9 samples.

Results

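Toll-like receptor genes were followed across 5 groups of mouse splenic conventional dendritic cells (cDC). Of 10 receptor genes listed by symbol (Tlr1, Tlr2, Tlr3, Tlr4, Tlr6, Tlr7, Tlr8, Tlr9, Tlr11 and Tlr12), 9 carried a named transcript cluster (the probes of 1 gene locus, read out as a single value), out of 19938 named genes in all. Tlr11 was not analysed here. Each of the 9 had 1 cluster, so no choice between clusters was needed. Of these 9, 6 had a group mean above the brightness limit (a log2 intensity of 5.94, the median of all values of clusters that carry 1 gene symbol) and entered the tests. These were Tlr1, Tlr2, Tlr3, Tlr6, Tlr7 and Tlr9. Tlr4, Tlr8 and Tlr12 lay under the limit on all 9 arrays and are given as values only.

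Cells were sort-purified from spleens of mice of strain 129SvEv/Tac. The cDC2, which mainly prime CD4 T cells, came from wild type (WT) mice or from Batf-/- Batf3-/- double knockout (DKO) mice, which lack 2 AP-1 family transcription factors. Each genotype was measured at rest and after activation, with 2 arrays per group, and 1 further array held resting WT cDC1, the cross-presenting subset. Activation was 1 h of IFN-gamma at 100 ng/ml followed by 3 h of E. coli LPS at 1 µg/ml, applied after the sort. No source used here gives the age of the mice, the number pooled per array, the sort gates, or the time resting cells spent in culture. Nothing ties the 2 arrays of a group to separate mice, so their spread may be technical in part. In sorted bulk cells, fewer cells of a type and less RNA per cell cannot be told apart.

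Toll-like receptors recognise conserved microbial molecules and signal through the adaptors MyD88 and TRIF (gene Ticam1) to NF-kappaB and interferon regulatory factors. TLR1, TLR2, TLR4 and TLR6 act mainly at the cell surface on lipoproteins and LPS. TLR3, TLR7, TLR8, TLR9, TLR11 and TLR12 act in endosomes, where the first 4 are known for nucleic acid sensing and the last 2 for binding of a parasite profilin. Splenic cDC1 and cDC2 of the mouse are known to differ in the receptors they carry, and LPS acts through TLR4 with the co-receptors MD-2 (Ly96) and CD14.

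The arrays matched their labels in most of the markers examined. On the cDC1 array all 9 cDC1 markers were above the brightness limit, with Xcr1 at 9.33 against 4.42 to 4.73 on the 8 cDC2 arrays, and Irf4, a cDC2 factor, was at 5.13. Each cDC2 array also had 4 or 5 of the 9 cDC1 markers above the limit. On the activated cDC2 arrays Irf8 read 11.67 to 12.27 and Ly75 10.70 to 11.47, against 9.94 and 10.66 in cDC1. The 9 summed to 2122 to 2712 (linear) on resting cDC2 arrays, 6887 to 8005 on activated ones and 6763 in cDC1. Of the cDC2 markers, Cd209a and Clec4a4 lay under the limit on every array. Batf was at 5.31 to 5.44 on the 4 DKO cDC2 arrays and 6.74 to 9.07 on the 4 WT cDC2 arrays, and Batf3 at 6.43 to 7.17 and 7.58 to 9.92. One array stood apart at rest. WT resting replicate 2 had a mean of 11.14 over 18 interferon-stimulated genes. The other resting cDC2 arrays lay at 9.16 to 9.78, and the activated ones at 11.15 to 11.70. Same-numbered arrays of different cDC2 groups deviated together (r = 0.39 to 0.59 across clusters in the 6 pairs of groups), so receptor tests, and the counts of gene lists, are also given with the replicate number as a block where that changes them.

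The clearest difference was between the subsets. Tlr7, an endosomal sensor of single-stranded RNA, and Tlr1, which pairs with TLR2 at the surface to bind triacylated lipoproteins, were lower in cDC1 than in cDC2. Tlr7 read 8.42 and 9.07 (log2 intensity) in resting WT cDC2 and 4.08 in cDC1. Every one of the 8 cDC2 arrays, at 7.26 to 9.09, lay above the cDC1 array. Tlr7 fell by 4.67 ± 0.40 (SE) on the log2 scale from cDC2 to cDC1 (limma adjusted p = 0.00186). Because the cDC1 value was under the brightness limit, this is stated as at least 6.99-fold lower, taken against that limit.

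Tlr1 read 9.95 and 9.36 in resting WT cDC2 and 7.37 in cDC1. All 8 cDC2 arrays, at 9.31 to 10.73, were above the cDC1 array, which itself was above the limit. Tlr1 fell by 2.29 ± 0.37 (adjusted p = 0.0126), to 0.205 of the cDC2 level. Thus 2 of the 6 tested receptors were lower in cDC1 and 0 higher, where 13.6% of all 10728 genes tested passed in either direction, 6.56% lower and 7.08% higher. For the spread of cDC1, which has no second array, that of the cDC2 groups was used. With only the 3 resting WT arrays in the fit the differences were the same in size but neither passed (adjusted p = 0.211 for Tlr1 and 0.207 for Tlr7), and 0 genes of all those tested passed in that fit.

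The other 4 tested receptors did not pass between the subsets. Tlr2, the shared partner of TLR1 and TLR6, read 7.97 and 8.59 in resting WT cDC2 and 8.36 in cDC1, between the cDC2 arrays. Tlr6, the partner for diacylated lipoproteins, read 6.31 and 6.25 against 6.30. Tlr9, the sensor of unmethylated CpG DNA, read 10.50 and 11.18 against 10.51, inside the cDC2 range. The 95% intervals of the differences, cDC1 minus cDC2, were -0.73 to 0.88 for Tlr2, -0.33 to 0.38 for Tlr6 and -1.18 to 0.53 for Tlr9.

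Tlr3, the sensor of double-stranded RNA, read 5.57 and 6.24 in resting WT cDC2 and 6.35 in cDC1, a difference of 0.45 ± 0.39 (adjusted p = 0.512), with 1 of the 2 cDC2 arrays under the limit. Its cDC1 value was above both resting WT cDC2 arrays but under the highest activated ones. Among the receptors under the limit, Tlr4 read 4.19 and 4.35 in resting WT cDC2 and 5.02 in cDC1. Tlr12 read 4.60 and 4.79 against 5.02, and Tlr8, whose mouse product is poorly responsive to the RNA ligands of its human counterpart, 4.33 and 4.92 against 3.97. No fold is given for these 3, since both sides are dim.

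**Figure D1:**
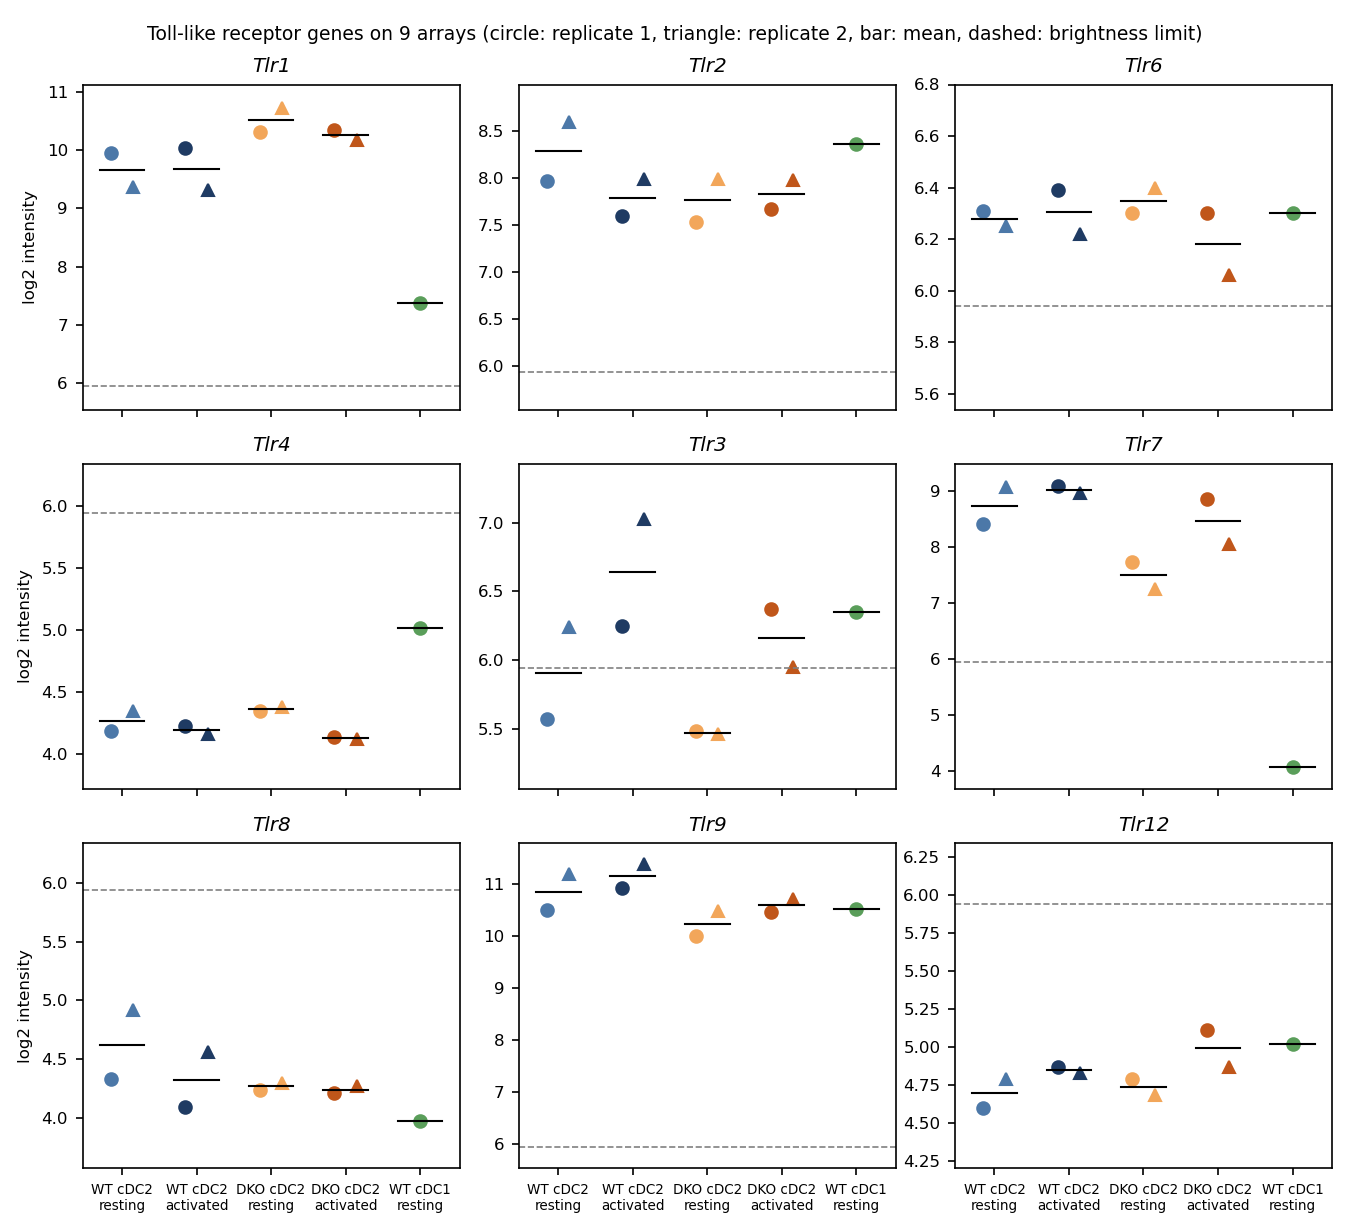
Log2 intensity of 9 Toll-like receptor genes (one panel each, with its own vertical scale) on each array, by group. Circles and triangles are replicates 1 and 2, bars are group means and the dashed line is the brightness limit of 5.94. Tlr7 and Tlr1 are lowest on the green cDC1 array, at 4.08 and 7.37, and Tlr4, Tlr8 and Tlr12 stay under the line on all 9 arrays.

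In WT cDC2, 0 of 6 tested receptors passed the limma threshold of adjusted p 0.05 between activated and resting cells (smallest unadjusted p 0.0584, for Tlr3), where 10.5% of all genes passed and 30.4% had an unadjusted p under 0.05. With the block 1 of 6 passed, against 35.3% of all genes. In DKO cDC2 the count was also 0 of 6, against 13.7% of all genes, and Tlr7 alone had an unadjusted p under 0.05 (0.0253), against 31.4%. With the block 2 of 6 passed, against 38% of all genes. In the mean of both genotypes (4 arrays against 4) it was 0 of 6 against 32.4% (10.6% higher and 21.7% lower), with Tlr3 and Tlr7 at unadjusted p of 0.0185 and 0.0354, a level under 0.05 that 44.3% of all genes reached. The median difference of the 6 was 0.13, beside -0.08 over all genes tested. With the replicate block, 4 of the 6 passed in that mean, Tlr3, Tlr7 and Tlr9 higher and Tlr2 lower, against 52.7% of all genes, of which 17% were higher and 35.7% lower.

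Activated Tlr3 was above its same-numbered resting array in all 4 pairs. It read 5.57 and 6.24 in resting and 6.25 and 7.03 in activated WT cDC2. In DKO cDC2 it read 5.48 and 5.46 at rest and 6.37 and 5.95 after activation. Across the genotypes, resting WT replicate 2 lay above activated DKO replicate 2. The measured difference was 0.72 ± 0.23 (adjusted p = 0.0549; 0.0224 with the block). Leaving out 1 array gave 0.52 to 0.91 (adjusted p from 0.0334 to 0.158), with a pass in 2 of the 8 cases, WT resting replicate 2 left out (0.88) or WT activated replicate 1 (0.91). All 4 pairs were higher for 22.1% of all genes tested. Of the 4 resting arrays, 3 were under the brightness limit, and both DKO ones among them, so the size of the difference is not exact. Both resting means, 5.90 in WT and 5.47 in DKO, were under the limit too. Tlr3 entered the tests only through its activated groups and the cDC1 array, and its pass with the block carries that limit.

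Tlr7 read 8.42 and 9.07 in resting and 9.09 and 8.97 in activated WT cDC2, which overlapped. In DKO cDC2 it read 7.74 and 7.26 at rest and 8.86 and 8.06 after activation. The DKO difference was 0.96 ± 0.33 (adjusted p = 0.105; 0.0478 with the block), or 0.56 without DKO activated replicate 1, and the WT difference 0.28 ± 0.33 (adjusted p = 0.611). The difference between these responses was 0.68 ± 0.47 (adjusted p = 1), so they were not shown to differ. In the mean of both genotypes Tlr7 stood at 0.62 ± 0.23 (adjusted p = 0.0875; 0.0489 with the block), with 0.42 to 0.82 when 1 array was left out (adjusted p from 0.0462 to 0.227). It passed only without DKO activated replicate 2 (0.82), and was lowest without DKO activated replicate 1 (0.42, adjusted p = 0.21).

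Tlr9 was higher in the activated array of all 4 same-numbered pairs, by 0.42 and 0.20 in WT and by 0.47 and 0.23 in DKO cDC2. In WT cells it read 10.50 and 11.18 at rest and 10.92 and 11.38 after activation. In DKO cells the values were 9.99 and 10.48, then 10.46 and 10.71. Resting and activated arrays overlapped in both genotypes, since replicate 2 was the higher array in each of the 4 groups, as it was for 23.9% of all genes. The mean difference of 0.33 ± 0.20 did not pass (adjusted p = 0.258) and passed with the block (0.33 ± 0.08, adjusted p = 0.0124). It was 0.16 without WT resting replicate 1 and 0.50 without WT resting replicate 2, with 0.21 without DKO resting replicate 1 and 0.22 without WT activated replicate 2. In DKO cells alone it was 0.35 (adjusted p = 0.454; 0.0489 with the block), and it was 0.10 without DKO resting replicate 1, 0.22 without DKO activated replicate 2 and 0.60 without DKO resting replicate 2.

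Tlr2 ran the other way in WT cells, with 7.97 and 8.59 at rest and 7.59 and 7.99 after activation. These groups overlapped, though each activated array was below its same-numbered resting array, with differences of -0.38 and -0.60. The WT difference was -0.49 ± 0.27 (adjusted p = 0.277; 0.011 with the block). It was -0.80 without WT resting replicate 1, -0.18 without WT resting replicate 2 and -0.29 without WT activated replicate 1. In DKO cells Tlr2 read 7.53 and 7.99 at rest and 7.67 and 7.98 after activation, a difference of 0.07 ± 0.27. The difference between the responses was 0.56 ± 0.38 (adjusted p = 1). In the mean of both genotypes Tlr2 stood at -0.21 ± 0.19 (adjusted p = 0.434; 0.0383 with the block).

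Tlr1 and Tlr6 did not pass in either genotype under either fit. Tlr1 read 9.95 and 9.36 in resting and 10.03 and 9.31 in activated WT cDC2, a difference of 0.02 (95% interval -0.71 to 0.74). Tlr6 lay between 6.06 and 6.40 on all 9 arrays, with a WT difference of 0.02 (-0.27 to 0.32). In DKO cells the difference was -0.27 ± 0.30 for Tlr1 and -0.17 ± 0.12 for Tlr6. Tlr4, the LPS receptor, read 4.12 to 4.23 on the 4 activated and 4.19 to 4.38 on the 4 resting cDC2 arrays, under the limit throughout. Tlr8 ranged from 4.09 to 4.92 and Tlr12 from 4.60 to 5.11 on the cDC2 arrays. A cluster under the limit gives only a bound, and this does not show that the transcript was absent.

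Genes known to follow LPS did respond in the same cells. Of 9 early LPS-induced genes tested, 8 rose in the mean of both genotypes and 0 fell (9 and 0 with the block), with a median of 2.22 beside -0.08 over all genes. Of all genes, as given above, 10.6% were higher and 21.7% lower. These counts include Il6 and Nos2, which read 5.04 to 5.78 and 5.53 to 5.72 on the resting cDC2 arrays, all under the limit. Nos2 entered the tests only through its activated groups, and Il6 only through those and the cDC1 array. Their rises are thus not independent of the filter. Il6, a proinflammatory cytokine, passed with an adjusted p of 3.07e-05 and was at least 12.2-fold higher, since its resting values were under the limit. Cxcl10, a chemokine, rose by 3.90 ± 0.42, Tnf by 2.88 ± 0.45 and Il12b, a subunit of IL-12, by 2.64 ± 0.20 (adjusted p from 0.000932 to 0.00636). IFN-gamma was given with LPS, so their parts cannot be told apart. The largest interaction among the receptors was that of Tlr7 above, and 0 of 6 passed between the DKO and WT responses. Over all genes 0% passed, with 1.13% at an unadjusted p under 0.05.

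**Figure D2:**
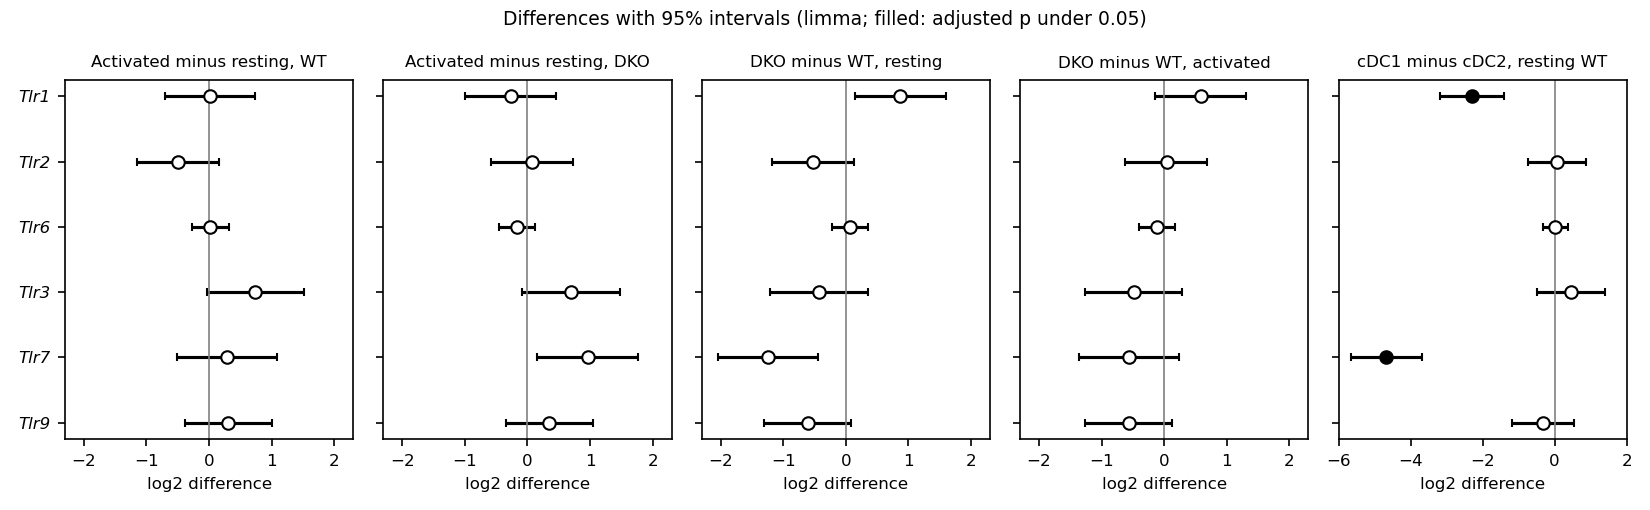
Log2 differences of the 6 tested receptor genes in 5 comparisons, with 95% intervals from limma (the cDC1 panel has a wider axis). Filled points passed adjusted p 0.05. Only Tlr1 (-2.29) and Tlr7 (-4.67) in cDC1 against cDC2 are filled.

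Loss of Batf and Batf3 left 0 of 6 tested receptors past the threshold in resting cDC2, in activated cDC2 and in the mean of both states, by limma. Over all genes tested 0.0186% passed in each of the 3 comparisons. The deleted genes themselves, Batf and Batf3, also gave 0 of 2 calls in each, at -2.21 ± 0.39 and -1.66 ± 0.32 in the mean of both states (adjusted p = 0.126 and 0.148; 0.0161 for each with the block). With the block 0 of 2 passed at rest and 1 of 2 after activation, so a receptor that did not pass is not shown to be the same in both genotypes. At rest, after activation and in the mean of both, 2, 0 and 3 receptors had an unadjusted p under 0.05 beside 6.59%, 5.95% and 10.8% of all genes. With the block, 0 of 6 passed at rest and 0 of 6 after activation (0.736% and 0.569% of all genes), and 1 of 6 (Tlr9) in the mean of both states, where 2.98% of all genes were higher and 2.6% lower, 5.58% together. The median difference of the 6 in that mean was -0.35, beside 0.01 over all genes. The genotype comparisons and the activation comparisons above share arrays.

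Tlr9 was lower in DKO than in WT in all 4 same-numbered pairs, with differences of -0.51 and -0.69 at rest and -0.46 and -0.67 after activation. Its values were 9.99 and 10.48 in resting DKO against 10.50 and 11.18 in resting WT cDC2. After activation they were 10.46 and 10.71 against 10.92 and 11.38. The genotypes did not overlap within a state, which held for 31.1% of all genes at rest and 29.9% after activation. Tlr9 differed by -0.58 ± 0.20 in the mean of both states (adjusted p = 0.363), and by -0.58 ± 0.08 with the block (adjusted p = 0.0161). When 1 array was left out of the fit without the block, that mean ranged over -0.75 to -0.41, and the resting difference over -0.94 to -0.26. The weakest values, -0.41 and -0.26, came without WT resting replicate 2, the array with high interferon-stimulated genes. All 4 pairs were lower for 13.3% of all genes tested.

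Tlr7 was also lower in DKO in all 4 pairs, with differences of -0.68 and -1.81 at rest and -0.23 and -0.90 after activation. Resting DKO arrays, at 7.74 and 7.26, lay below resting WT arrays, at 8.42 and 9.07. Activated DKO arrays, at 8.86 and 8.06, lay below activated WT arrays, at 9.09 and 8.97. The difference was -1.24 ± 0.33 at rest (adjusted p = 0.57; 0.139 with the block) and -0.91 ± 0.23 in the mean of both states (adjusted p = 0.239; 0.0668 with the block). Without WT resting replicate 2, the array with high interferon-stimulated genes, the resting difference was -0.92 (adjusted p = 0.828). Tlr7 and Tlr3 are themselves inducible by interferon in many cells. Of the 18 interferon-stimulated genes, 0 stood above 0 in resting DKO against WT (median -1.07, beside 0.01 over all genes), and 0 passed (1 lower with the block). WT resting replicate 1 had a mean of 9.78 over them, and the resting DKO arrays 9.16 and 9.30. A part of interferon in the Tlr7 and Tlr9 values was not tested.

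Tlr1 went the opposite way and was higher in DKO in all 4 pairs, by 0.37 and 1.38 at rest and by 0.32 and 0.86 after activation, and 18.9% of all genes were higher in all 4. It read 10.32 and 10.73 in resting DKO against 9.95 and 9.36 in resting WT cDC2. After activation it read 10.34 and 10.17 against 10.03 and 9.31. No DKO array overlapped a WT cDC2 array over the 8 arrays, which held for 2.57% of all genes in the mean of both states. The difference was 0.73 ± 0.21 (adjusted p = 0.286; 0.0713 with the block), so it did not pass.

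For the remaining receptors the genotypes were closer. Tlr2 stood at -0.53 ± 0.27 at rest (adjusted p = 0.884) and 0.04 ± 0.27 after activation, where the WT and DKO arrays overlapped. Tlr3 stood at -0.48 ± 0.32 after activation (adjusted p = 0.975), and at rest both genotypes' means, 5.90 and 5.47, were under the limit. Tlr6 stood at -0.03 (95% interval -0.23 to 0.18), the narrowest interval of the 6. Of the genes under the limit, Tlr4 differed by at most 0.15 and Tlr12 by at most 0.24 in any same-numbered pair, and Tlr8 was 4.21 to 4.30 on DKO and 4.09 to 4.92 on WT cDC2 arrays.

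Marker genes of other cell types were read beside these genotype values. B cell markers, of interest for Tlr9 and Tlr1, had 0 of 7 genes above the limit on 8 of the 9 arrays, with Pax5 at 5.94 on WT resting replicate 2 as the exception. Plasmacytoid dendritic cells are known for high Tlr7 and Tlr9. Of their 7 named markers, 5 were tested, 0 passed between genotypes, and 2 were lower with the block in the mean of both states. These were Tcf4 (-0.51 ± 0.11, adjusted p = 0.203; 0.021 with the block) and Ccr9 (-0.95 ± 0.30, adjusted p = 0.319; 0.019 with the block), where 2.6% of all genes were lower. Ccr9 read 8.14 and 7.40 in resting DKO against 9.06 and 8.51 in resting WT cDC2, and 5.95 and 5.68 against 7.27 and 6.12 after activation. The summed linear intensity of the 7 was 1486 to 3484 in resting DKO and 2174 to 6430 in resting WT. After activation the sums were 3683 to 5818 and 3736 to 6843. Bst2, one of the 7 and known to be induced by interferon, read 9.83 and 12.36 in resting WT and 9.40 and 11.44 in resting DKO cDC2. The defining marker Siglech was at 5.66 to 5.97 on all arrays, at or near the limit. Of the macrophage genes, C1qb stood at -0.80 ± 0.14 in DKO against WT in the mean of both states (adjusted p = 0.127; 0.0108 with the block). Not all went that way, since 2 of the 7 tested stood above 0 in the mean of both states (median -0.53, beside 0.01 over all genes). Spic read 9.56 and 9.08 in resting DKO against 8.86 and 8.48 in resting WT cDC2. With the block 4 of 7 tested macrophage genes and 2 of 5 tested monocyte genes were lower in that mean, beside 2.6% of all genes, and 0 without it. The 9 macrophage markers summed to 1496 to 1813 in resting DKO against 1614 to 1969 in resting WT. After activation those sums were 907 to 983 against 1048 to 1334. The 7 monocyte markers summed to 1080 to 1531 against 1365 to 2155 at rest and 1007 to 1328 against 1245 to 1757 after activation. The part of these cells in the receptor values was not tested.

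**Figure D3:**
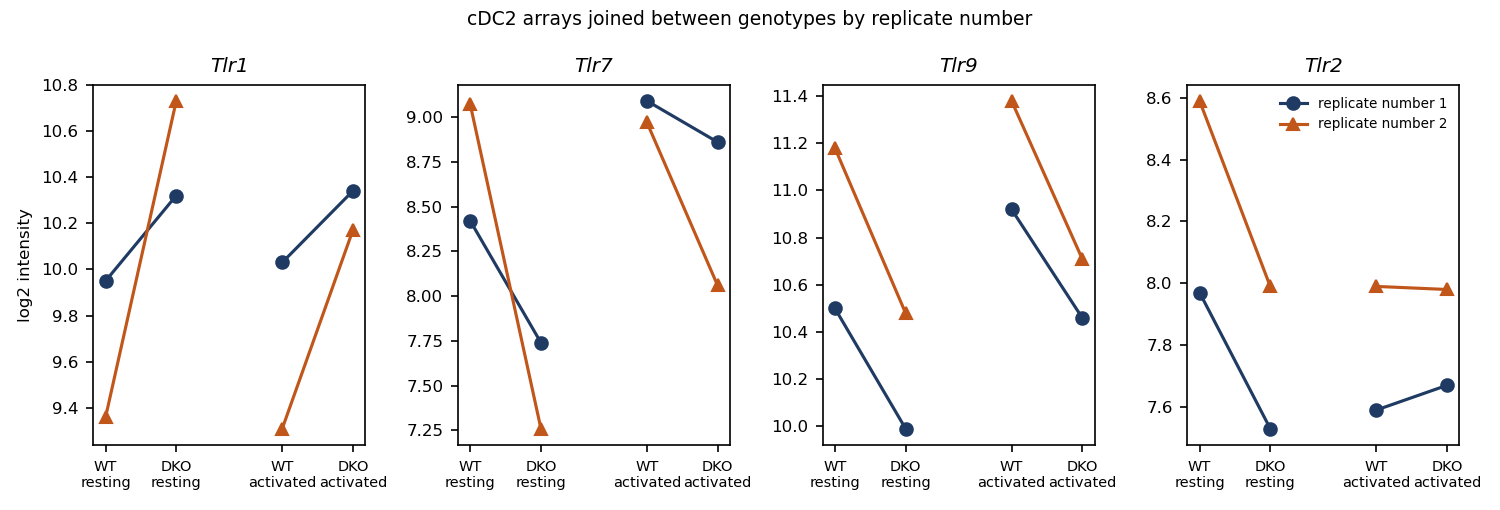
Log2 intensity of Tlr1, Tlr7, Tlr9 and Tlr2 on the 8 cDC2 arrays, with WT and DKO arrays of the same state and replicate number joined by a line (each panel has its own vertical scale). Lines fall for Tlr7 and Tlr9 and rise for Tlr1 in all 4 pairs, while for Tlr2 they fall at rest and lie near level after activation (0.08 and -0.01).

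Promoter sequence is shown for Tlr9, the receptor that passed with the block between genotypes, and for both annotated starts of Tlr1, which ran the opposite way. That of Tlr6, the neighbour of Tlr1 with the least genotype difference and with values close to the limit, is given for contrast. Each is the 250 bases before a transcript start (RefSeq, GRCm38.p6), 5′ to 3′ on the gene's strand, with motif matches in capitals.
Tlr9, chr9:106222348-106222597, plus strand: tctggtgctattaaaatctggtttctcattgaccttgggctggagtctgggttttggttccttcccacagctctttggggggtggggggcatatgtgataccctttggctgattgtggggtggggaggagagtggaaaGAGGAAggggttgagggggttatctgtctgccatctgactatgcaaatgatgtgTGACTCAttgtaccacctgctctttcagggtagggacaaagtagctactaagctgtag
Tlr1, chr5:64933559-64933808, minus strand: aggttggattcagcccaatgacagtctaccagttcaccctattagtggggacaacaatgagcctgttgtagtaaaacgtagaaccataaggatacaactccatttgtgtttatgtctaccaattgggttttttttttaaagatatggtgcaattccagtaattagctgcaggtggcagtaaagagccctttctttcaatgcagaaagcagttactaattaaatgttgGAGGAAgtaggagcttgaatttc
Tlr1, chr5:64932700-64932949, minus strand: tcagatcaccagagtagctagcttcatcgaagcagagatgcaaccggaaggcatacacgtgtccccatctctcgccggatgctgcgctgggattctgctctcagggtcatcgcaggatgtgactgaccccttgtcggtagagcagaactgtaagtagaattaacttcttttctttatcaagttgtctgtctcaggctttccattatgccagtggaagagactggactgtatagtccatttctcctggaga
Tlr6, chr5:64959167-64959416, minus strand: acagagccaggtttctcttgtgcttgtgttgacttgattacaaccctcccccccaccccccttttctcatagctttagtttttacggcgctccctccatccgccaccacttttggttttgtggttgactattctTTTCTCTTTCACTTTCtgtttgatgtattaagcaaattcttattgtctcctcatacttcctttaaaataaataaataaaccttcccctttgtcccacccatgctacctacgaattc

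Entries were found for 8 of the 10 genes, with 10 starts. Tlr4 and Tlr7 had no entry, so their promoters were not searched, though Tlr7 too was lower in DKO in all 4 pairs. Both strands were searched for 5 motifs, picked with results already known. TGANTCA, the AP-1 site that BATF proteins bind with JUN partners, was present in the Tlr9 window alone among the 10, at bases -58 to -52 relative to the start as TGACTCA. It was in 6.75% of all 32851 windows, so a lone match among 10 is near the share of all windows. GAGGAA, the core of the PU.1 site, was in Tlr9 at -112 to -107 and in the first Tlr1 start at -23 to -18, as well as in Tlr8 and Tlr11, and in 23.3% of all windows. The core of the interferon response element, GAAA and GAAA again with any 2 bases between, matched at 2 overlapping places in the Tlr6 window on the opposite strand, and in Tlr11, against 2.98% of all. The composite sites of IRF with AP-1, TTTC, any 4 bases and TGANTCA, or GAAA directly before TGANTCA, both overlap the AP-1 motif. They matched in none of the 10 and in 0.0974% and 0.1% of all. The windows of Tlr2, Tlr3 and Tlr12, the second start of Tlr1 and the other Tlr6 start held none of the 5. These matches describe letters and not binding.

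Among co-receptors and ligand-binding partners, Cd180 fell and Ly96 rose on activation. Of 6 named genes 5 were tested, with Lbp under the limit. Cd36 passed the filter through the cDC1 array alone, so its cDC2 tests are not used. Of the other 4, in the mean of both genotypes, 1 fell and 1 rose (with the block Ly86 rose too, 0.76 ± 0.21, adjusted p = 0.0202), beside 32.4% of all genes called. Cd180, a TLR-like receptor that works with MD-1 (Ly86), read 10.77 and 10.78 in resting and 10.20 and 9.64 in activated WT cDC2. It read 10.57 on both resting and 9.80 and 9.46 on the activated DKO arrays, and fell by 0.90 ± 0.14 (adjusted p = 0.0065). Ly96, which completes the LPS receptor, rose by 0.52 ± 0.15 (adjusted p = 0.0372). Cd36, a scavenger receptor that assists TLR2 with TLR6, lay at 4.10 to 5.35 on the 8 cDC2 arrays, all under the limit. Cd14 did not pass in any of the 8 comparisons and ranged from 7.54 to 8.99.

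Between the subsets Cd36 was the receptor-associated gene with the largest difference. It read 10.01 in cDC1 and 5.35 and 5.22 in resting WT cDC2, and was at least 16.7-fold higher against the limit. Since Cd36 entered the tests only through the cDC1 array, its test between the subsets is not independent of the filter and is not used. Cd180 was lower in cDC1, at 9.08, by 1.70 ± 0.25 (adjusted p = 0.00923). For DKO against WT in the mean of both states, Ly86 stood at -0.97 ± 0.27 (adjusted p = 0.271; 0.0493 with the block), with 7.74 and 7.92 in resting DKO against 8.37 and 9.46 in resting WT.

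Of 10 chaperones, transporters and proteases of endosomal receptors, 2 were lower and 0 higher on activation in the mean of both genotypes. Their median was -0.27, beside -0.08 over all genes. With the block 6 of 10 were lower and 0 higher. Over all genes 21.7% were lower and 10.6% higher in the main fit, so 2 of 10 lower is near the share of all genes. With the block 35.7% were lower and 17% higher. Slc15a4, a lysosomal histidine and peptide transporter needed for TLR7 and TLR9 signalling, fell by 0.55 ± 0.09 (adjusted p = 0.00745). Ctsb, a lysosomal cysteine protease, fell by 0.36 ± 0.07 (adjusted p = 0.00938) and was lower in cDC1 by 0.85 ± 0.11 (adjusted p = 0.00723). Unc93b1, the chaperone that carries endosomal receptors out of the endoplasmic reticulum, read 8.54 and 9.81 in resting WT cDC2 and 9.63 in cDC1 and passed in none of the 8 comparisons. Between genotypes 0 of 10 passed, with Ctsb at -0.51 ± 0.07 (adjusted p = 0.075; 0.0101 with the block).

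Adaptors split. Of 6 named adaptor genes 4 were tested, since Tirap and Sarm1 lay under the limit. On activation, in the mean of both genotypes, 2 rose and 1 fell (the same counts with the block), beside 32.4% of all genes called and 52.7% with the block. Myd88, the adaptor of all these receptors except TLR3, read 9.45 and 10.06 in resting and 10.87 and 11.23 in activated WT cDC2, and 9.79 and 9.55 against 10.97 and 11.27 in DKO. It rose by 1.37 ± 0.17 (adjusted p = 0.00293). Pik3ap1, which links receptors to PI3 kinase, rose by 0.71 ± 0.15 (adjusted p = 0.0171), and Ticam1, the adaptor of TLR3 and TLR4, fell by 0.56 ± 0.08 (adjusted p = 0.00443). In cDC1 Ticam2 was lower by 0.85 ± 0.16 and Ticam1 by 0.62 ± 0.14 (adjusted p = 0.0198 and 0.0327). Pik3ap1 in DKO stood at -0.93 ± 0.15 against WT in the mean of both states (adjusted p = 0.126; 0.0244 with the block).

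Of 16 kinases and ubiquitin ligases tested, 4 rose and 2 fell on activation in the mean of both genotypes (8 and 3 with the block). Over all genes 10.6% were higher and 21.7% lower, 32.4% together, and 17% and 35.7% with the block. Peli1, an E3 ligase of IRAK proteins, rose by 0.87 ± 0.23, Tbk1, the kinase upstream of IRF3, by 0.67 ± 0.08 and Map3k8 by 0.57 ± 0.12, while Tab1 fell by 0.47 ± 0.06 (adjusted p from 0.00289 to 0.033). Of 13 inhibitors, against the same shares, 5 rose and 1 fell (6 and 3 with the block). Among them Socs1 rose by 1.15 ± 0.24, Trim30a by 1.10 ± 0.21, Tnfaip3, the deubiquitinating enzyme A20, by 0.94 ± 0.08, and Zc3h12a by 0.81 ± 0.16 (adjusted p from 0.00124 to 0.0144). Of 5 transcription factors Rela rose by 0.40 ± 0.10 and Irf3 fell by 0.58 ± 0.17 (adjusted p = 0.0255 and 0.0412), with 2 higher and 1 lower with the block. The medians of the 3 lists were 0.14, 0.01 and 0.11, beside -0.08 over all genes. By genotype, WT cDC2 had 1 kinase higher (Tbk1, 0.57 ± 0.12) and 1 lower (Tab1), and 1 inhibitor higher (Tnfaip3, 0.94 ± 0.12), beside 10.5% of all genes called. With the block these were 5 and 2 kinases and 6 and 0 inhibitors, beside 35.3%. DKO cDC2 had 2 kinases higher (Tbk1, 0.77 ± 0.12, and Map3k8, 0.72 ± 0.18) and 1 lower (Tab1), and 3 inhibitors higher (Socs1, 1.38 ± 0.33, Trim30a, 1.37 ± 0.30, and Tnfaip3, 0.94 ± 0.12), beside 13.7%. With the block these were 7 and 2 kinases and 5 and 2 inhibitors, beside 38%. In the test of the difference between responses 0 of these genes passed.

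In cDC1 against cDC2, Tbk1 (-0.62 ± 0.14), Tab2 (-0.44 ± 0.10), Tnfaip3 (-1.05 ± 0.15) and Rel (-0.72 ± 0.14) were lower, and 0 genes of these 3 lists were higher, beside 6.56% of all genes lower and 7.08% higher. In the genotype comparisons 0 genes of any of these lists passed. In the mean of both states those of smallest p were Irak2 at -0.70 ± 0.15 (adjusted p = 0.188; 0.0297 with the block) and Irak1 at 0.16 ± 0.07 among the kinases. Tnip1 at 0.18 ± 0.06 and Cyld at -0.19 ± 0.12 led the inhibitors, and Irf5 at -0.15 ± 0.08 and Irf7 at -0.59 ± 0.45 the transcription factors.

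**Figure D4:**
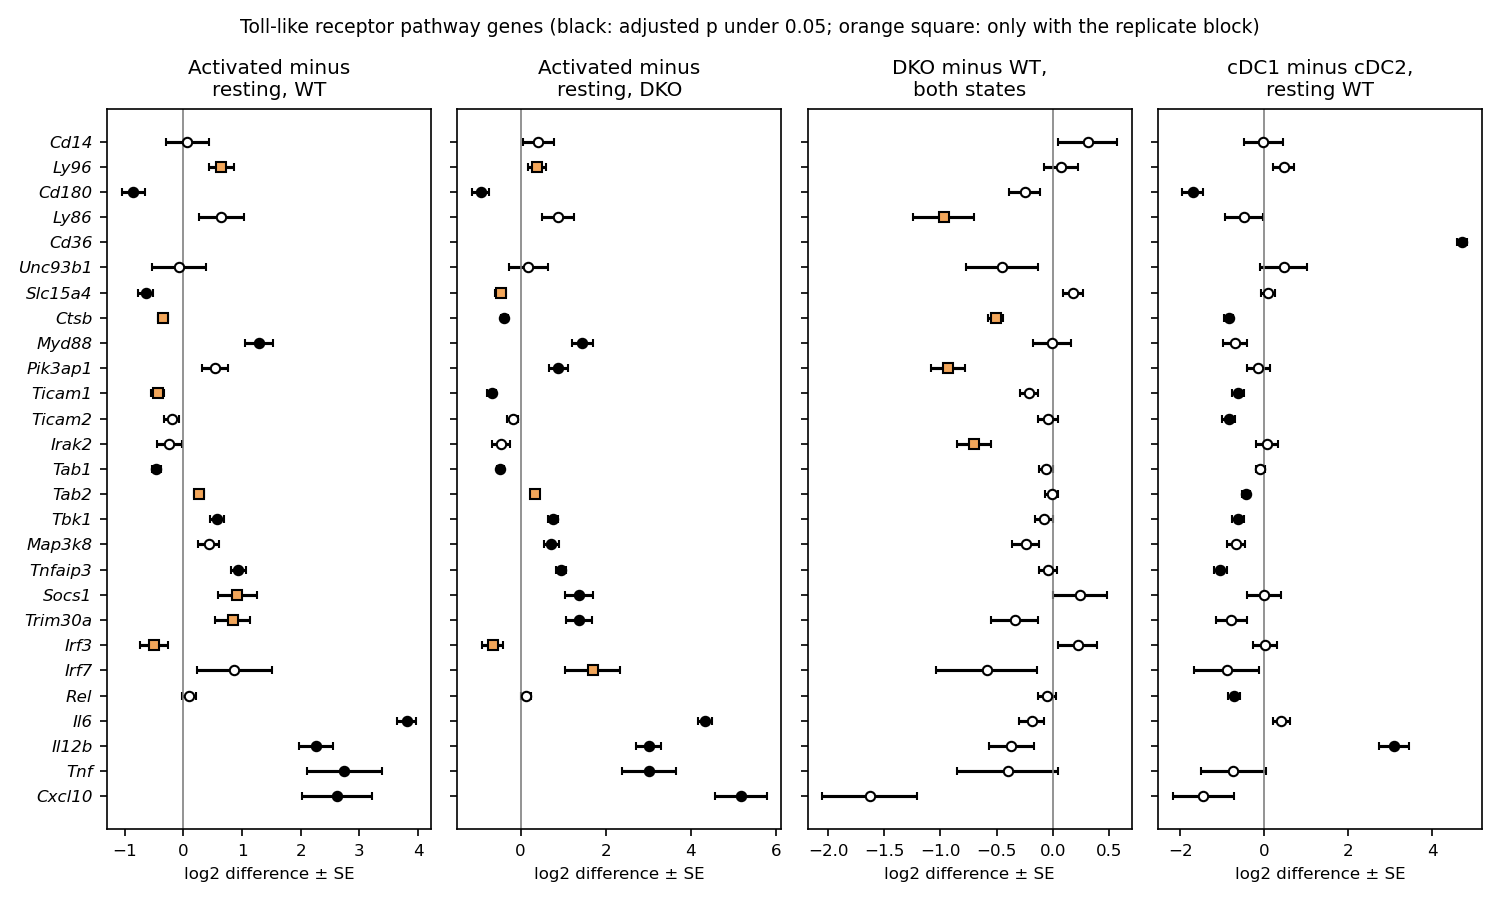
Log2 differences (± SE) of pathway genes in 4 comparisons, each panel with its own horizontal scale. Cd36 is drawn only in cDC1 against cDC2, since its cDC2 values are all under the limit. It passed the filter through the cDC1 array alone, so its point there is not independent of the filter. Black points passed adjusted p 0.05, orange squares passed only with the replicate block and open points did not pass. Myd88 rises in both activation panels (1.29 in WT and 1.45 in DKO), and Cd36 (4.72) stands far to the right in cDC1 against cDC2.

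The genes whose values ran most like those of Tlr7 over the 9 arrays were Dock10 (Pearson r = 0.98), Syvn1 (0.97) and Smg1 (0.97). For Tlr1 they were Tuba1a (0.98), Uap1 (0.96) and Zfp664 (0.96). Much of this likeness came from the single cDC1 array, since over the 8 cDC2 arrays r was 0.84 for each of the Tlr7 genes and 0.91, 0.85 and 0.79 for the Tlr1 genes. These are the highest among all genes tested, and the 9 points share the cDC1 array and the groups.

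Of the other Toll-like receptor genes, Tlr13, an endosomal sensor of bacterial ribosomal RNA, was measured and Tlr5 was not analysed here. Tlr13 read 7.82 and 8.65 in resting and 8.05 and 8.47 in activated WT cDC2, and 8.28 and 8.50 against 8.16 and 7.98 in DKO. Its cDC1 value of 8.61 lay inside the resting WT cDC2 range, and it passed in none of the 8 comparisons.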

How the data were processed

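RNA from 9 sorted samples was hybridised to Affymetrix gene arrays, 1 array per sample. Per the submitters' processing notes the authors used RMA in Affymetrix Expression Console. Each deposited value is an intensity, linear rather than log (array medians 53.4 to 55.6). RMA brings arrays to a shared distribution, so a difference in total RNA is not visible. The genome build is not given in the sources used here. Of 28853 transcript clusters, 21789 carried 1 gene symbol, 1621 several and 5443 none in the platform annotation, and only the first were named. Log2 was taken, and the brightest cluster of a gene was kept. A gene was tested where any group mean exceeded 61.3 (linear), the median over all values of clusters with 1 symbol, which left 10728.

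Groups and replicate numbers came from the sample titles. limma 3.58.1 (lmFit, then eBayes) under R 4.3.3 gave two-sided tests from a single model of the 9 arrays, with 4 residual degrees of freedom (3 with the block, which leaves out the cDC1 array). The Benjamini-Hochberg adjustment ran over every gene tested. The script was tested on simulated data. The 9 receptors with a cluster are named with their values, and from each pathway list up to 4 genes that passed, by size, or else the 2 of smallest p. The receptor list, the pathway lists, the interferon list and the motifs were chosen with earlier results of these data known. The replicate numbers were taken to pair the arrays from the shared deviations given with the results, not from the labels. The alternatives were the block, filters, normalization, prior, clusters, arrays in the fit and each array left out.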

Additional observations from a re-analysis of the deposited data

How the results depend on the processing

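The number of tested receptors past the threshold was recomputed under 127 combinations of a comparison and an alternative setting, and 119 of these counts stayed within 1.5 times the main count. With the replicate block it went from 0 to 1 in WT activation, to 2 in DKO activation, to 4 in activation over both genotypes and to 1 in DKO against WT over both states, and the block changed no other receptor call. With only the 3 resting WT arrays, cDC1 against cDC2 gave 0 in place of 2. Leaving out 1 array gave 0 to 1 for activation over both genotypes (1 without WT resting replicate 2, WT activated replicate 1 or DKO activated replicate 2) and 2 to 2 for cDC1 against cDC2, where the Tlr1 difference ranged over -2.58 to -1.99 (largest adjusted p 0.0443) and that of Tlr7 over -4.99 to -4.35 (largest adjusted p 0.00989). In the other 6 comparisons it gave 0 each time. With no filter the cDC1 count was 3, through Tlr4, whose values are under the limit on both sides. Of 746 values of single receptors under an alternative, 0 reversed a called direction, 11 gained and 2 lost the call. Over all genes, the block raised the calls from 1131 to 3791 in WT activation and from 2 to 599 in DKO against WT over both states. With 2 arrays per group, and 1 for cDC1, differences of the size seen between genotypes are at the edge of what can be called, and Tlr4, Tlr8 and Tlr12 are limited by signal over background.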
